A study of Mus musculus with 18 samples.

Results

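The genes described here encode 46 acute phase, complement and clotting proteins that are secreted into blood plasma. They were chosen by name from a list of such proteins, with earlier results of these data known, by a rule that uses no measured value, and all 46 were found by gene identifier among the 34932 genes of the deposited expression table. Transcripts were measured by RNA sequencing of total RNA from mouse liver, brain and testis after chronic restraint stress, in which an animal is repeatedly confined to impose lasting psychological stress, and from control mice. Each tissue had 3 stress and 3 control libraries, 18 in all, which the study describes as biological replicates. The labels' sample codes recur across the tissues, with 1 code for each replicate number of a treatment, and were read as the same animals sampled in each tissue, which the labels do not state. The groups were stress liver, control liver, stress brain, control brain, stress testis and control testis. No genetic change was named for any group, with strain, age and length of the restraint not given in the sources used here. Labels call the second tissue brain, while the extraction text names hippocampus.

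The acute phase response is the change in plasma protein synthesis that hepatocytes make during infection or injury. Interleukin-6 acts through the factor STAT3 and interleukin-1 through NF-kB and C/EBP factors, and glucocorticoids, the adrenal hormones released in stress, can strengthen the response. Complement is a cascade of plasma proteases that marks and perforates microbes, and coagulation is a second cascade that ends in a fibrin clot, which plasmin dissolves.

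The 250 bases before the transcription starts of the 3 fibrinogen genes and of hepcidin (Hamp) are shown. They were chosen because all 3 fibrinogen genes lay lower in stress liver and Hamp had the smallest p of the group for heme, iron and bacterial products. The sequences come from RefSeq annotation of build GRCm38.p6 and run 5′ to 3′ on the strand of the gene. The windows are chr3:83025903-83026152 (plus strand) for Fga, chr3:83049864-83050113 (minus strand) for Fgb, chr3:83007474-83007723 (plus strand) for Fgg and chr7:30944030-30944279 (minus strand) for Hamp. Capitals mark matches, on either strand, to the letters TTCNNNGAA (STAT), CTGGGAA (IL-6 response element), TTGCNNAA (C/EBP) and GGGNNTTCC (NF-kB).
Fga: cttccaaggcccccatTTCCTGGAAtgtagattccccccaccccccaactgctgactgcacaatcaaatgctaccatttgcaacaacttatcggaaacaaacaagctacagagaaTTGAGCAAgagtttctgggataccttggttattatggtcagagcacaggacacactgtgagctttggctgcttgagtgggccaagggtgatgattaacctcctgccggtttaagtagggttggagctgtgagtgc
Fgb: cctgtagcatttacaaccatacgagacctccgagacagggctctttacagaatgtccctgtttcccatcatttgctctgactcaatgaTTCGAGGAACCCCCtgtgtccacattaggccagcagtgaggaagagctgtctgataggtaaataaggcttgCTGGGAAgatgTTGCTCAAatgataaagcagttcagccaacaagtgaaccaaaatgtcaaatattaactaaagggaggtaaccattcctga
Fgg: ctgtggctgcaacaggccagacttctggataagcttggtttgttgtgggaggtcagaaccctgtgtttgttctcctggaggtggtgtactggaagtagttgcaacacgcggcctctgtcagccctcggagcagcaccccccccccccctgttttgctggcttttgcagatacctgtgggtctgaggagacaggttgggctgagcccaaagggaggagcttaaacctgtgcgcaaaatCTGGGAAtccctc
Hamp: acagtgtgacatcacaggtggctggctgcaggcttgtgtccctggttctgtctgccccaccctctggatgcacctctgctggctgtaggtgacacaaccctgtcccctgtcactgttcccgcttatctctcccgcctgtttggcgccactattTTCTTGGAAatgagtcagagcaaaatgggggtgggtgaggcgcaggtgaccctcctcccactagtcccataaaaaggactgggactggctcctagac
In RefSeq order, Fgg, Fga and Fgb follow each other on chromosome 3, with the non-coding gene Gm40075 between Fga and Fgb. The Fgb window held a STAT match from -162 to -154 relative to the start, an NF-kB match from -157 to -149 that overlaps it, an IL-6 response element from -91 to -85 and a C/EBP match from -80 to -73. Fga held a STAT match from -234 to -226 and a C/EBP match from -135 to -128. Fgg held an IL-6 response element from -13 to -7, and Hamp held a STAT match from -97 to -89. The window of C6, the complement gene with the smallest p after Cfd, held 0 matches and is not shown.

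A RefSeq window was matched for 37 of the 46 genes, and not for Plg, Masp1, Hp, Orm1, Cfi, A2m, Cfb, Lbp and C2. The C/EBP letters were present in 14 of the 37 genes, all 4 serum amyloid A genes among them, against 9.56% of all 32851 promoter windows in the table. STAT letters were present in 8 of 37 (7.02% of all windows), the IL-6 response element in 5 of 37 (9.1%) and NF-kB in 1 of 37 (4.98%). The palindromic glucocorticoid receptor motif was in 0 of 37 windows, against 0.0304% of all windows. A match describes letters, not a bound site, and its absence from these windows says nothing about the factor.

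Library totals ranged from 27.85 to 36.5 megacounts. Hepatocyte markers (10 genes) summed to 81720 to 104600 CPM (a gene's counts per megacount of its library) in the 6 liver libraries, neuron markers (10 genes) in brain to 9723 to 11440 CPM, and germ cell markers (10 genes) in testis to 13080 to 16900 CPM, so the tissue labels fitted their defining genes. Stress and control were compared within each tissue by edgeR's quasi-likelihood test on the deposited counts, fitted over all genes with enough counts. Fold changes are log2 of stress over control, with the SE of the fit, and a gene is said to have risen or fallen where its Benjamini-Hochberg adjusted p over all tested genes was under 0.05. CPM values follow 1 gene across libraries, and TPM (transcripts per megatranscript, which also divides by gene length) is used where genes are set against each other. In bulk tissue, fewer cells of a type and less RNA per cell cannot be told apart.

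The genes were transcribed overwhelmingly in liver. Together they took 3.55% to 3.75% of all counts in stress liver and 3.48% to 3.97% in control liver, against 0.00509% to 0.00776% over all brain libraries and 0.0201% to 0.0639% over all testis libraries. Hamp, the hormone that blocks iron export from cells, had the highest mean in stress liver, at 7925 ± 968 TPM, against 4177 ± 920 TPM in control liver (SD, n = 3 each). The heme scavenger Hpx had 4548 ± 81.6 TPM in stress liver and the highest mean in control liver, at 4896 ± 881 TPM, and the hemoglobin scavenger Hp had 4133 ± 201 TPM in stress liver and 3952 ± 1270 TPM in control liver. In control liver the spreads of these 3 genes overlap, so no order can be read there. At the low end, Cfb had 3.03 ± 0.0917 TPM in stress liver and 1.77 ± 0.517 TPM in control liver. Its level is uncertain, since 81% of the 100-base windows of its transcript also occur in another gene. Cfd had 0.112 ± 0.101 TPM in stress liver and 2.68 ± 2.08 TPM in control liver. A2m had 2 counts over all 6 liver libraries and was the 1 gene of the 46 that was not tested in liver.

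**Figure D1:**
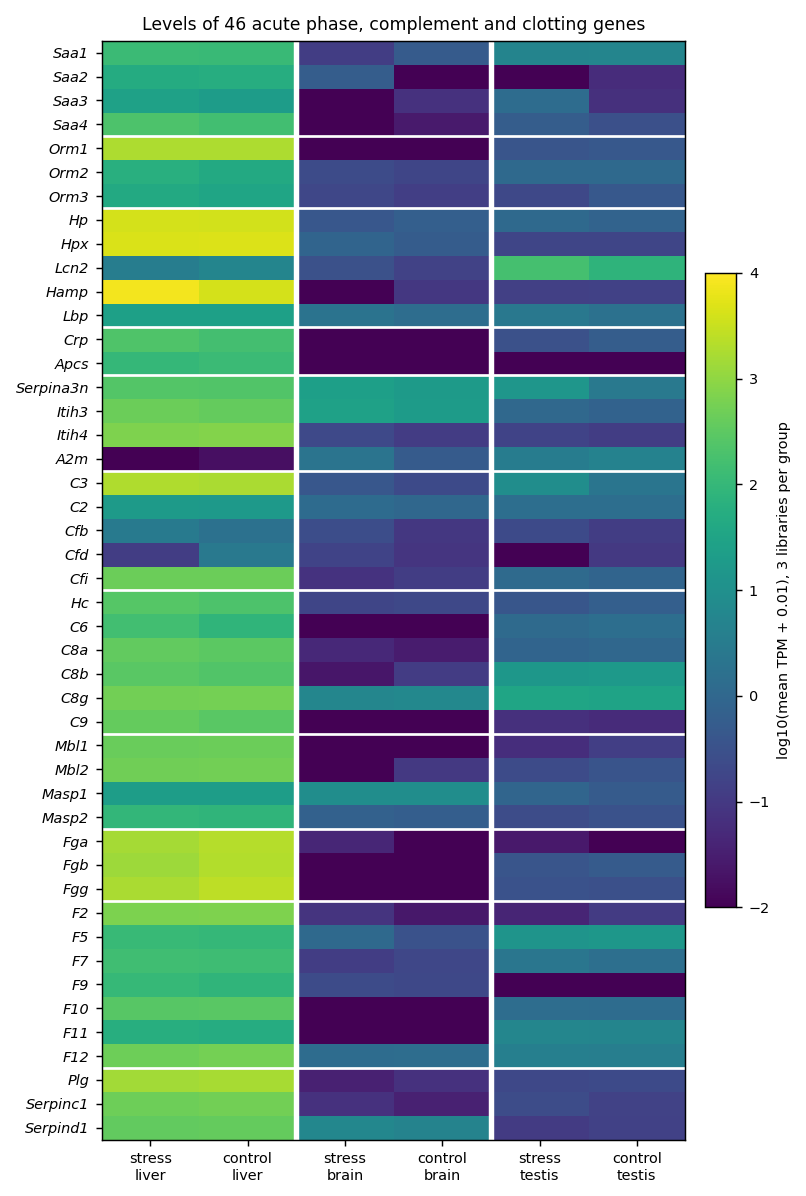
Mean level of each of the 46 genes (rows, ordered by role, white lines between roles) in the 6 groups (columns), as log10 of mean TPM plus 0.01 over 3 libraries per group. The liver columns are bright for nearly every row, with A2m and Lcn2 as the rows that are higher in control testis than in control liver.

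In control libraries, 45 of the 46 genes were higher in liver than in brain by edgeR's adjusted p, where 34.4% of 17849 tested genes were called higher and 45.6% lower. Against control testis, 44 of 46 were higher in control liver, where 34.5% of 20079 genes were called higher and 54% lower. The list was made of plasma proteins, and many of its genes passed the count filter only through liver. In the stress fits, 14 of the 46 had enough counts within brain and 27 within testis. An excess in liver was thus largely built in, and these counts are descriptive. Of the 28 genes with at least 3 counts in the control brain libraries, the median ratio of mean TPM, liver over brain, was 310, and of the 40 genes with at least 3 counts in control testis it was 276. The narrowest ratio above brain was that of Masp1, a protease of the lectin pathway, at 2.51. A2m, a broad protease trap, was the exception in both tissues: it averaged 0.00769 ± 0.0133 TPM in control liver, against 0.52 ± 0.11 TPM in control brain and 4.65 ± 0.681 TPM in control testis (SD, n = 3 each). By edgeR it was lower in control liver than in control brain (log2 fold change -4.01 ± 0.84 SE, adjusted p = 0.00211) and than in control testis (-7.80 ± 0.53 SE, adjusted p = 5.09e-07). Control liver held 2 counts of A2m, against 75 in control brain and 758 in control testis, a CPM ratio of 0.027 to brain (exact 95% interval 0.00322 to 0.101, counting error only) and of 0.0023 to testis (0.000279 to 0.00835). Lcn2, lipocalin 2, which withholds iron from bacteria by binding their siderophores, was the other exception in testis. It averaged 5.30 ± 5.80 TPM in control liver, against 79.0 ± 5.24 TPM in control testis (log2 fold change -2.70 ± 0.66 SE, edgeR adjusted p = 0.00336).

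Stress liver gave few calls among these genes. Of 45 tested genes, 2 fell, Fgb and the complement protease gene Cfd, and 0 rose by edgeR, while over all 14253 tested genes 0.645% fell and 0.982% rose. With unadjusted p under 0.05 stood 6 higher genes, where 8.78% of all tested genes did so, and 4 lower genes, where 8.37% did. DESeq2 called 2 higher, Hamp and C6, and 3 lower, Cfd, Fgb and Fgg, where it called 3.45% of 13693 genes higher and 2.8% lower. The median log2 fold change was 0.03 over the 45 genes and -0.01 over all tested genes. Stress and control libraries did not overlap for 14 of the 45 genes (31.1%), against 23% of all genes: 9 lay above the control libraries (12% of all genes did) and 5 below (11.1% of all genes). Fibrinogen and terminal complement held 7 of these 14 genes.

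**Figure D2:**
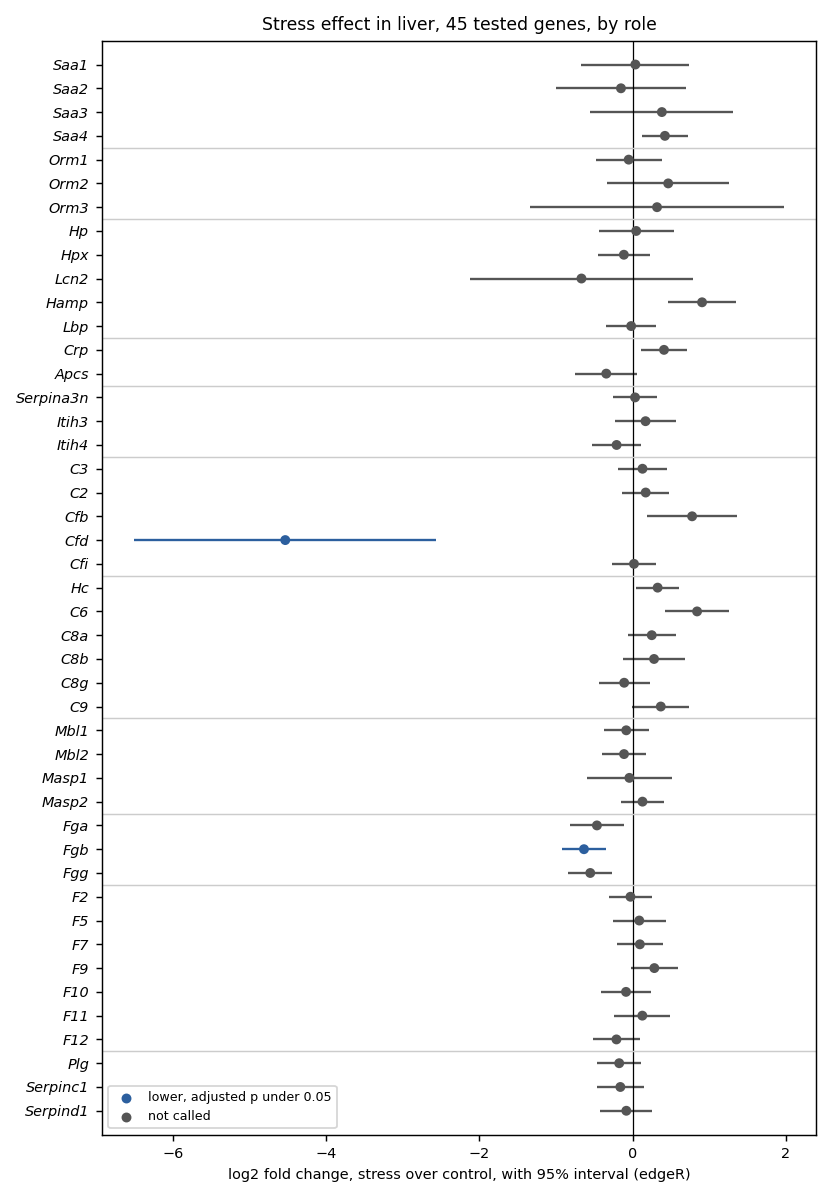
Log2 fold change in liver, stress over control, of the 45 tested genes (rows, ordered by role), with the 95% interval of edgeR's fit as a bar. Cfd, at -4.54, and Fgb, at -0.63, are the 2 genes called lower, Fga and Fgg lie close to Fgb, and most other intervals cross 0.

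Fibrinogen, the clot's building block, is assembled from the alpha, beta and gamma chains that Fga, Fgb and Fgg encode, and all 3 genes lay lower in every stress liver library than in any control liver library. Fgb had 2630, 2752 and 2405 CPM in stress liver replicates 1, 2 and 3, against 3784, 3921 and 4384 CPM in control liver replicates 1, 2 and 3. Fgg had 1994, 1920 and 1736 CPM in stress liver, against 2643, 2653 and 2986 CPM in control liver. Fga had 2277, 2623 and 2378 CPM in stress liver, against 2892, 3063 and 4090 CPM in control liver. Control liver replicate 3 was the highest library for each chain. Fgb fell by 0.63 ± 0.13 on the log2 scale (SE, 95% interval -0.92 to -0.35, edgeR adjusted p = 0.0476). Fgg, at -0.55 ± 0.13 (95% interval -0.84 to -0.26, edgeR adjusted p = 0.0665), and Fga, at -0.47 ± 0.16 (95% interval -0.82 to -0.11, edgeR adjusted p = 0.177), missed the threshold. The call of Fgb held in 1 of the 6 fits that each left out 1 library, that without control liver replicate 1, with adjusted p between 0.0341 and 0.227 over the 6 and log2 fold changes between -0.68 and -0.57.

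Of the remaining clotting genes, 0 of the 7 tested clotting factors and 0 of the 3 genes for plasminogen and the thrombin inhibitors were called by edgeR, or reached an unadjusted p under 0.05, and DESeq2 called none of them. F2, prothrombin, had 1613, 1669 and 1511 CPM in stress liver, against 1743, 1515 and 1624 CPM in control liver, and the groups overlapped (log2 fold change -0.03, 95% interval -0.31 to 0.25). F9, the factor lacking in hemophilia B, had 135.4, 136.3 and 164.2 CPM in stress liver, against 114, 133.9 and 109.8 CPM in control liver. F12, which starts contact activation, had 500.7, 487.1 and 464.1 CPM in stress liver, against 642, 507.8 and 529.7 CPM in control liver. Both F9, above, and F12, below, had groups that did not overlap, with edgeR adjusted p = 0.32 for F9 (log2 fold change 0.29, 95% interval -0.02 to 0.59) and 0.481 for F12 (-0.21, 95% interval -0.52 to 0.10). Plg, the precursor of plasmin, had 2114, 2193 and 1955 CPM in stress liver, against 2536, 2388 and 2139 CPM in control liver, and Serpinc1, antithrombin, had 2220, 2117 and 2047 CPM in stress liver, against 2658, 2046 and 2423 CPM in control liver. Both pairs of groups overlapped, with log2 fold changes of -0.17 for Plg and -0.16 for Serpinc1. The other members here, F5, F7, F10, F11 and Serpind1, the thrombin inhibitor heparin cofactor II, had log2 fold changes between -0.09 and 0.13.

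Terminal complement, the proteins that assemble into the pore of the membrane attack complex, had no call by edgeR. The stress libraries lay above all control libraries for 4 of its 6 genes, Hc (complement C5), C6, C8a and C9, and the median log2 fold change of the 6 was 0.30. C6 had 273.5, 293.8 and 387.7 CPM in stress liver, against 145.4, 215.8 and 171.1 CPM in control liver (log2 fold change 0.84 ± 0.19 SE, edgeR adjusted p = 0.0582). Hc had 808.8, 809.5 and 940.2 CPM in stress liver, against 685.8, 690.8 and 661.3 CPM in control liver (0.33 ± 0.13 SE, edgeR adjusted p = 0.225). C9, the pore-forming subunit, had 469.1, 440.4 and 585.6 CPM in stress liver, against 320.3, 429.9 and 407.5 CPM in control liver (0.37 ± 0.17 SE, edgeR adjusted p = 0.293). Stress liver replicate 3 was the highest library for each of these 3 genes and for C8a, which had 679, 693.1 and 710.1 CPM in stress liver, against 538, 676.8 and 534.5 CPM in control liver. C8b, at 0.28, and C8g, at -0.11, had overlapping groups. Together with C8a they encode the 3 chains of complement C8.

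Among the genes of the early cascade, Cfd, the protease factor D that starts the alternative pathway, fell in stress liver by 4.54 ± 0.88 in log2 units (SE, 95% interval -6.51 to -2.56, edgeR adjusted p = 0.0438), but at a level near the limit of detection. It had 3, 0 and 2 counts in stress liver libraries (0.0961, 0 and 0.0654 CPM), against 87, 22 and 24 counts in control liver libraries (2.53, 0.655 and 0.745 CPM). Control liver replicate 1 held 87 of these counts, and the call was lost in each of the 6 fits that left out 1 library (adjusted p 0.0602 to 0.17). Cfd is best known from fat tissue. Of 12 adipocyte markers, several of which hepatocytes also express, 6 to 8 were detected in stress liver libraries and 6 to 9 in control liver libraries. Their summed level was 2854 to 3263 CPM in stress liver and 3308 to 4555 CPM in control liver, but nearly all of it was Car3 (2815 to 3228 CPM in stress liver and 3265 to 4518 CPM in control liver). Lep and Adipoq had 0 CPM in all stress liver libraries, and in control liver libraries Lep had 0 CPM and Adipoq 0, 0 and 0.0628 CPM. Plin1 had 0 CPM in all stress liver libraries, against 0.171, 0 and 0 CPM in control liver. Cidea had 0.0644, 0 and 0 CPM in stress liver, against 0.171, 0 and 0 CPM in control liver. Both were highest in the control library with most Cfd counts, control liver replicate 1. That library was also the highest of all 6 for Retn, Fabp4, Lipe and Pparg, with Retn near the limit of detection. It was the lowest of all 6 for Cidec and Plin4, and not the highest for Car3, Adipoq and Ucp1. Cidec had 4.38, 3.765 and 4.77 CPM in stress liver, against 3.33, 4.75 and 8.91 CPM in control liver. Plin4 had 6.60, 10.27 and 12.72 CPM in stress liver, against 3.62, 4.92 and 11.2 CPM in control liver. Of the 6 markers tested 4 were lower, of which 1 fell by edgeR, Pparg, with 5.15, 4.40 and 5.01 CPM in stress liver, against 12.4, 9.56 and 9.79 CPM in control liver (log2 fold change -1.15 ± 0.18 SE, edgeR adjusted p = 0.0223). The part of adipocyte RNA in the fall of Cfd was not tested.

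C3, the hub of all complement pathways and the complement gene with the most liver counts, had 4524, 5940 and 4769 CPM in stress liver, against 4758, 4230 and 4932 CPM in control liver, and the groups overlapped (log2 fold change 0.13, 95% interval -0.20 to 0.46). Cfi and C2 overlapped too, at 0.02 and 0.17. Cfb, factor B of the alternative pathway, had 4.68, 4.29 and 4.32 CPM in stress liver, against 1.81, 3.21 and 2.73 CPM in control liver, with no overlap (0.78 ± 0.26 SE, edgeR adjusted p = 0.166). Its counts are uncertain: 81% of the 100-base windows of its annotated transcript also occur in the read-through gene Gm20547, as do 53.2% of those of its neighbour C2. In the lectin pathway, which recognises microbial sugars, Mbl2 had 318.4, 280.2 and 255.7 CPM in stress liver, against 316.4, 301.2 and 304.9 CPM in control liver, and the protease gene Masp2 had 150.2, 163.7 and 155.8 CPM in stress liver, against 157.7, 143.8 and 127.8 CPM in control liver. The groups overlapped for all 4 genes of that pathway, with log2 fold changes between -0.11 and 0.13.

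**Figure D3:**
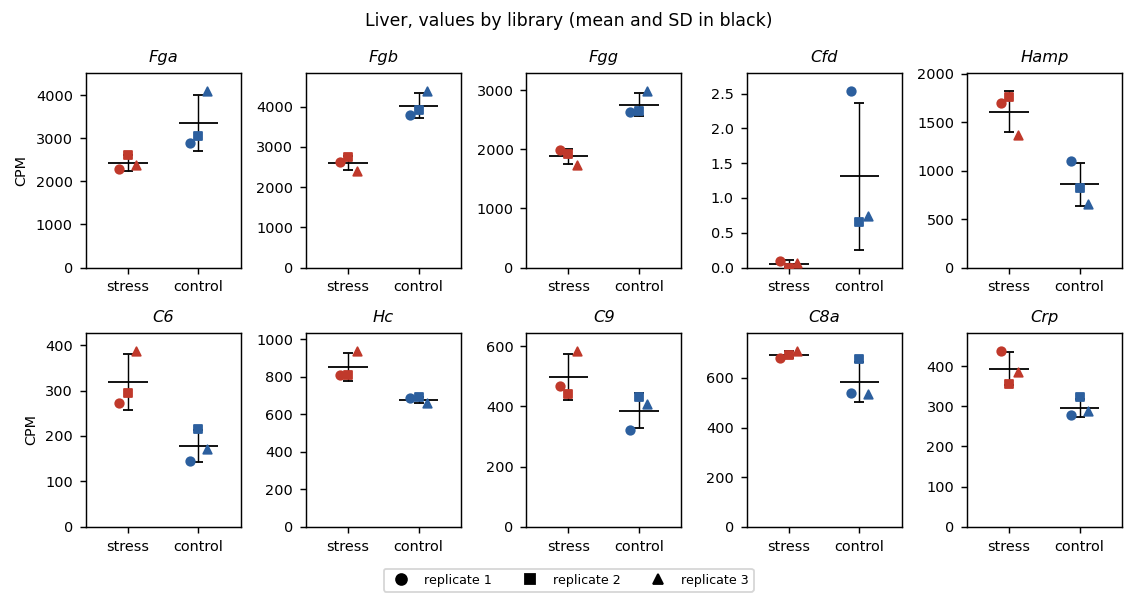
CPM by library in liver for 10 genes, stress on the left and control on the right, with replicate number shown by the symbol and mean and SD (n = 3) in black. The 3 fibrinogen genes and Cfd lie lower in each stress library, and Hamp, C6, Hc, C9, C8a and Crp lie higher.

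Hamp had the smallest p of the genes outside fibrinogen and complement, and it did not pass the threshold. It had 1703, 1756 and 1371 CPM in stress liver, against 1096, 820 and 657 CPM in control liver, so the groups did not overlap (log2 fold change 0.91 ± 0.20 SE, 95% interval 0.47 to 1.35, edgeR adjusted p = 0.0534). DESeq2 called it (0.91, adjusted p = 0.000295). Without control liver replicate 1, edgeR's adjusted p was 0.0193, and over the 6 fits that each left out 1 library it ranged from 0.0193 to 0.152. Crp, C-reactive protein, a pentraxin that is only a minor reactant in mice, had 438.4, 356.5 and 385.4 CPM in stress liver, against 277.6, 322.3 and 287.7 CPM in control liver (0.41 ± 0.14 SE, edgeR adjusted p = 0.163). Saa4, the constitutive serum amyloid A of high-density lipoprotein, had 203.4, 211.7 and 236.4 CPM in stress liver, against 181, 157.3 and 147.7 CPM in control liver (0.42 ± 0.13 SE, edgeR adjusted p = 0.144). For both Crp and Saa4 every stress library lay above every control library. Apcs, serum amyloid P, the main pentraxin reactant of mice, had 60.7, 46.4 and 43.1 CPM in stress liver, against 78.0, 52.6 and 60.0 CPM in control liver, with overlapping groups (-0.34, 95% interval -0.75 to 0.06).

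With all 6 libraries, edgeR called none of Saa1, Saa2, Saa3, Orm1, Orm2, Orm3, Hp, Lcn2, Serpina3n, Itih3, Itih4, Lbp and Hpx, and the groups overlapped for each of these 13 genes. Saa1, Saa2 and Saa3, the inducible serum amyloid A genes, had log2 fold changes of 0.04 (95% interval -0.67 to 0.74), -0.15 (-0.99 to 0.69) and 0.38 (-0.55 to 1.32). Each interval reaches beyond 0.5 on the log2 scale in both directions. Saa3 had 12.4, 4.32 and 5.33 CPM in stress liver, against 7.89, 3.39 and 5.59 CPM in control liver. Orm1, the orosomucoid with the highest level, had 758.7, 791.9 and 630.5 CPM in stress liver, against 971.2, 699.5 and 587.7 CPM in control liver, and Hp had 2773, 2913 and 2934 CPM in stress liver, against 3888, 2030 and 2420 CPM in control liver. Serpina3n, an inhibitor of serine proteases, had the narrowest interval of the 13 genes, at 0.03 (95% interval -0.25 to 0.32). Itih3, which carries hyaluronan in plasma, had 766.5, 947.9 and 783.2 CPM in stress liver, against 920.3, 618.1 and 681.5 CPM in control liver, and its relative Itih4 had 1113, 1289 and 1124 CPM in stress liver, against 1567, 1223 and 1281 CPM in control liver. Lbp, which binds bacterial lipopolysaccharide, had a log2 fold change of -0.02, and Hpx had -0.11. Reads of Saa1 and Saa2 and of Orm1 and Orm2 can be split between the copies, as 9.8% and 6.95% of their 100-base windows are shared.

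Control liver replicate 1 stood apart for these reactants. It held the highest of the 6 values for 19 of the 45 genes (42.2%), against 22.6% of all tested genes. Lcn2 had 4.45, 4.11 and 5.50 CPM in stress liver, against 17.0, 3.45 and 1.86 CPM in control liver replicates 1, 2 and 3. Orm3 had 20.3, 15.2 and 17.9 CPM in stress liver, against 34.0, 6.78 and 1.89 CPM in control liver, and Orm2 had 29.5, 25.9 and 18.3 CPM in stress liver, against 30.0, 12.6 and 10.7 CPM in control liver. For Orm2 and Orm3 every stress library lay above control replicates 2 and 3, and below control replicate 1. Without that library the log2 fold change was 1.08 for Orm2 (edgeR adjusted p = 0.0431), against 0.47 with it (adjusted p = 0.552). For Orm3 it was 2.03 (edgeR adjusted p = 0.0572), against 0.32 with the library (adjusted p = 0.868), and for Lcn2 0.82, against -0.67. The library was picked for its high values of these genes, so leaving it out had to raise their fold changes. Over the 6 fits that each left out 1 library, Orm2 was called in 1 (edgeR adjusted p 0.0431 to 0.809). Orm3 and Lcn2 were called in 0. Log2 fold changes ranged from 0.204 to 1.076 for Orm2, -0.199 to 2.032 for Orm3 and -1.125 to 0.816 for Lcn2.

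**Figure D4:**
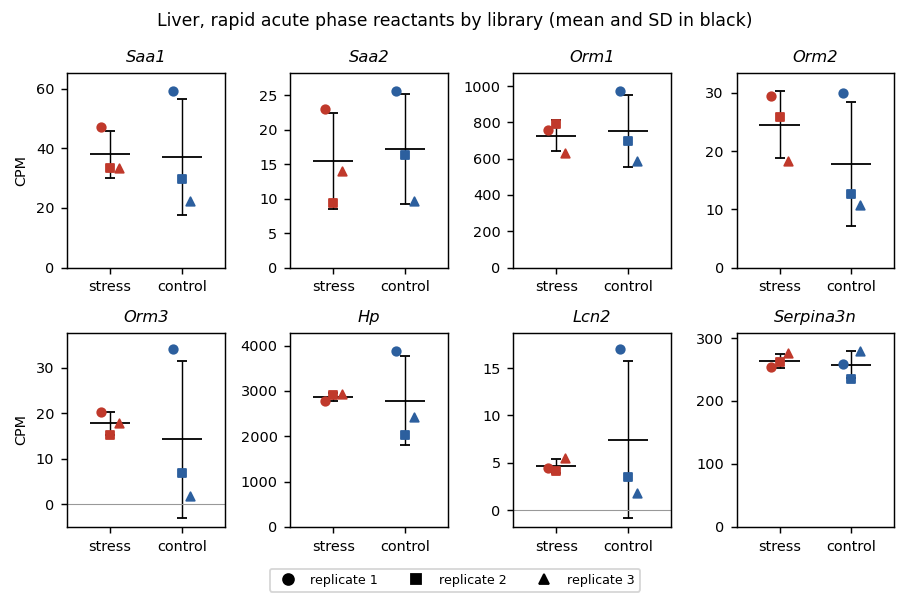
CPM by library in liver for 8 acute phase genes, stress on the left and control on the right, with replicate number shown by the symbol and mean and SD (n = 3) in black. Control replicate 1 (circle) is the highest control value of Lcn2, Orm1, Orm2, Orm3, Hp, Saa1 and Saa2, and the groups overlap in every panel.

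The signalling genes that drive the acute phase response, and the other genes of these pathways, were read from the same liver fit. Of 23 tested genes of interleukin-6 and interleukin-1 signalling and hepatocyte control, 1 rose and 1 fell. Socs3, which damps interleukin-6 signalling and is itself induced by it, had 7.50, 21.6 and 8.998 CPM in stress liver, against 125, 122.4 and 113.9 CPM in control liver (log2 fold change -3.24 ± 0.36 SE, edgeR adjusted p = 0.00498), with no overlap. Of 22 other acute phase genes, 1 fell, Vnn1, a pantetheinase (-1.84 ± 0.16 SE, edgeR adjusted p = 0.00207), and 0 rose; the next smallest p was that of the metallothionein gene Mt2 (-2.82 ± 0.70 SE, edgeR adjusted p = 0.078). Of 12 negative acute phase genes, whose products drop in inflammation, 0 were called by edgeR and 0 reached an unadjusted p under 0.05, with Ttr at -0.30 and Apoa2 at -0.30. Of 22 other clotting and fibrinolysis genes 0 were called, with 2 higher and 2 lower ones passing an unadjusted p of 0.05, among them Tfpi2 (-0.36 ± 0.12 SE, edgeR adjusted p = 0.158).

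Of 21 other complement genes, 4 rose in stress liver and 0 fell. They were the 3 chains of C1q, which starts the classical pathway, and Cfp, properdin, which stabilises the alternative pathway's convertase. C1qa had 36.3, 29.3 and 32.9 CPM in stress liver, against 16.9, 12.6 and 12.5 CPM in control liver (log2 fold change 1.23 ± 0.16 SE, edgeR adjusted p = 0.0108), and C1qc rose by 1.15 ± 0.15 (SE, edgeR adjusted p = 0.0108). C1q is made mainly by macrophages. Its 3 genes also stand in the list of 15 macrophage markers, of which 9 rose and 0 fell by edgeR. That list summed to 272.6, 221.1 and 238 CPM in stress liver, against 123.5, 110.2 and 113.7 CPM in control liver, while the 10 hepatocyte markers summed to 81720 to 104300 CPM in stress liver and 89260 to 104600 CPM in control liver. The part of macrophage number in the rise of C1q was not tested.

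In brain, 14 of the 46 genes had enough counts to be tested, and 10 of the other genes had 0 counts in all 6 libraries, which at 200.9 megacounts allows a level of up to 0.0149 CPM for each (3 counts over the tissue, counting error only). By edgeR 0 of the 14 rose or fell, against 0.00566% of 17668 tested genes that rose and 0% that fell. With unadjusted p under 0.05 there were 3 higher genes (4.16% of all genes) and 0 lower (3.38% of all genes). DESeq2 called 1 higher, A2m, and 0 lower, where it called 0.583% of 15940 genes higher and 0.276% lower. With the replicate number as a block, edgeR again called 0 of the 14, where 0.0962% of all genes rose and 0.0283% fell. The groups did not overlap for 2 of the 14 (14.3%, against 13.8% of all genes), A2m above (7.21% of all genes) and C8g below (6.64% of all genes). A2m had 3.11, 1.92 and 3.61 CPM in stress brain, against 0.744, 0.555 and 0.887 CPM in control brain, a difference of 1.97 ± 0.33 on the log2 scale (SE, 95% interval 1.20 to 2.75, edgeR adjusted p = 0.381). F5, clotting factor V, had 0.591, 3.08 and 3.74 CPM in stress brain, against 0.655, 0.586 and 0.832 CPM in control brain (1.83 ± 0.62 SE, edgeR adjusted p = 0.602). Stress brain replicates 2 and 3 held the high F5 values and were also the libraries with high choroid plexus markers: the 13 markers summed to 200.1, 741.9 and 601.2 CPM in stress brain replicates 1, 2 and 3, against 224.3, 193.4 and 199.1 CPM in control brain. In stress brain replicate 1, where A2m was also above all control libraries, Enpp2 gave 181.1 CPM of that sum. Otx2, another of the 13, had 2.84, 2.08 and 1.80 CPM in stress brain, against 0, 0 and 0.411 CPM in control brain. In stress brain replicate 1, Kl, Kcnj13, Prlr and Sostdc1 also lay above all control brain libraries. Folr1, Kcne2 and Aqp1 lay below all of them there, and the remaining markers, Ttr and Enpp2 among them, lay within their range. The 8 meninges markers summed to 1529, 1218 and 739.5 CPM in stress brain, against 1043, 973.2 and 570.6 CPM in control brain. Most of each sum was Ptgds, with 1398, 1068 and 652.1 CPM in stress brain, against 926.7, 850 and 506.9 CPM in control brain. Of the 8, 7 had log2 fold changes above 0 and 1 below, and 0 reached an unadjusted p under 0.05 by edgeR. The part of choroid plexus or meninges tissue in the A2m and F5 values was not tested.

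The genes with the highest levels in brain were Itih3, Serpina3n, Masp1, C8g, Serpind1 and Lbp. Itih3 had 32.3, 20.9 and 33.2 CPM in stress brain, against 18.5, 22.9 and 22.5 CPM in control brain (log2 fold change 0.43 ± 0.19 SE, edgeR adjusted p = 0.662). Serpina3n, which astrocytes raise in brain inflammation, had 12.8, 14.6 and 16.8 CPM in stress brain, against 10.3, 14.6 and 10.3 CPM in control brain. Masp1 had 8.92, 6.60 and 5.39 CPM in stress brain, against 8.10, 6.75 and 7.18 CPM in control brain. The groups of these 3 genes overlapped. C8g, whose product also belongs to the lipocalin family, had 2.36, 2.50 and 2.49 CPM in stress brain, against 2.89, 2.59 and 2.86 CPM in control brain (-0.18, 95% interval -0.61 to 0.25). Serpind1 had 3.85, 3.93 and 3.80 CPM in stress brain, against 3.10, 4.04 and 2.41 CPM in control brain, and Lbp had 1.55, 3.87 and 2.99 CPM in stress brain, against 1.88, 2.50 and 1.72 CPM in control brain. Both overlapped. Of the other pathway lists in brain, edgeR called 0 of 17 signalling genes (Il1r1 at 0.39 and Nfkbia at 0.18 had the smallest p), 0 of 10 other acute phase genes (Mt2 at 0.19, Mt1 at 0.15), 0 of 4 negative acute phase genes (Ttr at 6.94, Rbp4 at -0.14), 0 of 19 other complement genes (C7 at -1.17, Clu at 0.17) and 0 of 17 other clotting genes (Plat at 0.35, F8 at 0.50). With unadjusted p under 0.05 these lists held 0, 0, 1, 5 and 1 genes in that order. Ttr is itself a choroid plexus marker and had 3.68, 496.2 and 318.6 CPM in stress brain, against 0.654, 5.81 and 0.274 CPM in control brain.

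In testis, 27 of the 46 genes were tested and 2 others had 0 counts in all 6 libraries (a level of up to 0.0166 CPM each). By edgeR, 0 of the 27 rose or fell, against 0.00502% of 19915 tested genes that rose and 0.0151% that fell. With unadjusted p under 0.05 there were 5 higher genes (6.43% of all genes) and 2 lower (5.3% of all genes), and DESeq2 called 0 of them, where it called 0.155% of 18748 genes higher and 0.171% lower. The groups did not overlap for 8 of the 27 genes (29.6%, against 20.9% of all genes), 5 above (10.3% of all genes) and 3 below (10.7% of all genes). Stress testis replicate 2 stood apart from the other 5 testis libraries: the 46 genes summed to 182.4, 493.3 and 205.8 TPM in stress testis replicates 1, 2 and 3, against 184.5, 178.4 and 185.1 TPM in control testis. Replicate 2 of stress testis was picked for its high values of these genes, so a share above that of all genes was built in. In that library 9 of the 27 genes (33.3%) exceeded the median of the other 5 by more than 2-fold, against 4.58% of all tested genes. They were Serpina3n at 17.3-fold, C3 at 8.88-fold, Itih3 at 4.98-fold, Lcn2 at 4.37-fold, Masp2 at 3.94-fold, Saa4 at 3.26-fold, Lbp at 2.88-fold, Cfi, which inactivates C3b, at 2.73-fold and Masp1 at 2.68-fold. Saa3, which was below the test's filter, had 0, 28 and 0 counts in stress testis, against 0, 1 and 0 counts in control testis.

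Lcn2 had 97.9, 393.8 and 99.0 CPM in stress testis, against 90.2, 78.0 and 81.7 CPM in control testis, so every stress library lay above every control library and replicate 2 far above the rest. With all libraries it differed by 1.24 ± 0.47 in log2 units (SE, edgeR adjusted p = 0.422), and by 0.24 (adjusted p = 0.418) without stress testis replicate 2. C3 had 7.13, 46.2 and 5.37 CPM in stress testis, against 5.20, 3.76 and 4.16 CPM in control testis, a log2 difference of 2.16 ± 0.72 (SE, edgeR adjusted p = 0.422), or 0.51 without that library. Serpina3n had 1.21, 36.2 and 2.33 CPM in stress testis, against 3.18, 2.096 and 1.34 CPM in control testis, and its log2 difference of 2.59 ± 1.08 (SE, edgeR adjusted p = 0.422) became -0.31 without it. The same library, picked for its high values, was the highest for 13 of the 27 genes (48.1%), against 31.8% of all tested genes. It was also the highest for the sums of several marker lists. The 15 macrophage markers summed to 56.6, 124.5 and 60.7 CPM in stress testis, against 49.4, 47.2 and 57.9 CPM in control testis. Sertoli cell markers (10 genes) summed to 472.2, 787.2 and 495.2 CPM in stress testis, against 464.4, 500.7 and 472.3 CPM in control testis, and Leydig cell markers (7 genes) to 313.6, 502.7 and 338.5 CPM in stress testis, against 365.2, 364.2 and 379.2 CPM in control testis. Of the 7 Leydig cell markers, 5 had log2 fold changes below 0, 3 of them with unadjusted p under 0.05 by edgeR. The other 2 lay above 0, 1 of them with unadjusted p under 0.05. Germ cell markers (10 genes) summed to 15040, 16900 and 14830 CPM in stress testis, against 13530, 13080 and 13350 CPM in control testis. Most of each sum was Prm1, Prm2 and Tnp2. Of the 10, 6 had log2 fold changes above 0, 2 of them with unadjusted p under 0.05 by edgeR. The other 4 lay below 0, 1 of them with unadjusted p under 0.05. The part of any of these cells in the high values was not tested.

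**Figure D5:**
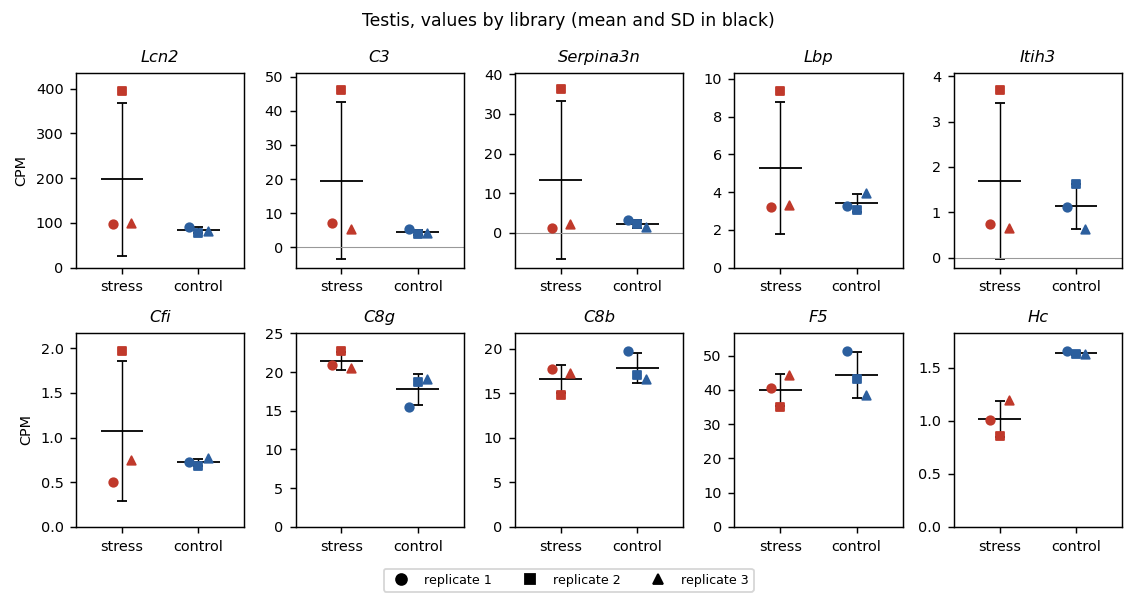
CPM by library in testis for 10 genes, stress on the left and control on the right, with replicate number shown by the symbol and mean and SD (n = 3) in black. Stress replicate 2 (square) lies far above the other libraries for Lcn2, C3, Serpina3n, Lbp, Itih3 and Cfi, and within or near their range for C8g, C8b, F5 and Hc.

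Among other members described in testis, stress replicate 2 was the highest library for C8g and F7, at 1.19-fold and 1.79-fold the median of the other 5, and not for C8b, F5 and F11. C8g had 20.96, 22.8 and 20.5 CPM in stress testis, against 15.5, 18.7 and 19.1 CPM in control testis, with no overlap (log2 fold change 0.27, 95% interval -0.004 to 0.542). C8b had 17.7, 14.9 and 17.3 CPM in stress testis, against 19.8, 17.1 and 16.7 CPM in control testis. F5 had 40.4, 35.0 and 44.5 CPM in stress testis, against 51.5, 43.2 and 38.4 CPM in control testis. F11, the factor that activates F9, had 6.29, 5.20 and 4.92 CPM in stress testis, against 5.34, 4.63 and 4.48 CPM in control testis, and like C8b and F5 it had overlapping groups. F7, which starts clotting with tissue factor, had 1.62, 2.20 and 1.70 CPM in stress testis, against 1.16, 1.23 and 0.991 CPM in control testis, with no overlap (0.71 ± 0.26 SE, edgeR adjusted p = 0.422; 0.56 without stress testis replicate 2). Of the other pathway lists in testis, edgeR called 0 of 18 signalling genes (Nr3c1 at -0.37 and Foxa3 at -0.64 had the smallest p), 0 of 14 other acute phase genes (Lrg1 at 3.39, Mt1 at 0.29), 0 of 4 negative acute phase genes (Fetub at -0.63, Apoa2 at 0.81), 0 of 21 other complement genes (C1qa at 0.92, Cr1l at -0.48) and 0 of 16 other clotting genes (Ggcx at 0.61, Plat at 0.28). With unadjusted p under 0.05 these lists held 1, 2, 0, 3 and 1 genes in that order.

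Whether the response to stress differed between tissues was tested as the interaction of tissue and treatment over the 12 libraries of each pair. All 46 genes entered both fits, though only 14 had enough counts to be tested within brain and 27 within testis. For the others, of which 10 had 0 counts in all brain libraries, too few counts were present there to measure a stress effect. A missing call for them does not show that the responses were alike. For liver minus brain, 0 of the 46 genes were called by edgeR, where 0.1% of 18962 tested genes were higher and 0.0949% lower, and 1 higher (5.89% of all genes) and 4 lower members (5.72% of all genes) passed an unadjusted p of 0.05. With the animal as a block, again 0 were called, where 0% of all genes were higher and 0.0105% lower. F5 had the smallest p (-1.74 ± 0.60 SE, edgeR adjusted p = 0.272). Without stress brain replicate 1 it was called (-2.21, edgeR adjusted p = 0.0102) in a fit whose stress brain libraries are those with high choroid plexus markers. Cfd and Fga came next (edgeR adjusted p = 0.329 and 0.342), but had 6 and 3 counts over all 6 brain libraries. For liver minus testis, 0 genes were called, where 0.0748% of 21392 genes were higher and 0.0795% lower, and 4 higher (5.05% of all genes) and 5 lower members (8.84% of all genes) passed an unadjusted p of 0.05. With the animal as a block 0 were called, where 0.028% of all genes were higher and 0.0467% lower. The smallest p were those of Hc (0.96 ± 0.22 SE, edgeR adjusted p = 0.09), Crp (1.19 ± 0.30 SE, edgeR adjusted p = 0.117) and C6 (0.999 ± 0.288 SE, edgeR adjusted p = 0.164). DESeq2 called these 3 genes higher for liver minus testis, where it called 2.06% of 16816 genes higher and 2.2% lower, and 0 for liver minus brain, where it called 1.57% of 16002 genes higher and 1.97% lower.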

How the data were processed

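RNA sequencing counts of 18 libraries (3 tissues, stress or control, 3 each) were analysed. Per the labels, libraries came from total RNA with a stranded kit, and the submitters' processing notes name build mm39. Aligner, counting program, strand setting and annotation: not given in the sources used here. Counts were deposited by the authors as whole numbers without normalization. TPM, which the authors deposited beside them for each gene and library, were used for levels and as an alternative scale. FPKM was not used. CPM values of single genes carry TMM factors, and marker values and sums use library size alone. Symbols came from GENCODE mouse release M21 (GRCm38), which named all 46 genes. RefSeq windows of GRCm38.p6 gave the sequences, and no position was converted to mm39. Stress brain replicate 3 has a description with a control prefix, while its title, treatment and column say stress, and it was kept in stress.

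Tests used R 4.3.3 and edgeR 4.0.16 (quasi-likelihood test, TMM factors, filterByExpr with a minimum count of 10, Benjamini-Hochberg adjustment over all tested genes, threshold 0.05), with each tissue fitted alone. The 46 genes and the other lists were chosen with earlier results of these data known. The labels call the libraries biological replicates and give each a code that differs within a group and recurs across tissues. The code was read as 1 animal and used as the block between tissues, which the labels do not state, so p values measure the spread between these libraries. Named genes were, by rule, those called, in liver the highest and the 2 of smallest p in each role group, in brain and testis the 6 highest and the 3 of smallest p, the 3 of smallest p in each interaction, those higher outside liver, and the 2 of smallest p in each other list, of which some are not reported here. All 46 genes are accounted for by role; those given library by library outside this rule (Fga, C8a, C9 and Hp in liver, the genes high in stress testis replicate 2) were chosen after their values were seen. Correlations of deviations between libraries of the same replicate number were 0.305, 0.167 and 0.439 in brain, where the numbers were taken to pair libraries, 0.187, 0.053 and -0.001 in liver and 0.077, 0.068 and -0.088 in testis, where they were not. Alternatives were DESeq2 1.42.0, its size factors, library size alone, factors without the 46 genes, no filter, 1 CPM in 3 libraries, limma 3.58.1 on log2(TPM + 0.5), a replicate block, 1 fit of all 18 libraries, and leaving out each library. The fits were first tested on simulated data with 200 changed genes. Of 2-fold changes, edgeR recovered 55% in liver, 54% in brain and 73% in testis. It recovered 14% for liver minus brain and 10% for liver minus testis. Of 4-fold changes it recovered 90%, 82%, 90%, 55% and 54% in that order. A missing call, above all in the interactions, can therefore hide a real difference.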

Additional observations from a re-analysis of the deposited data

Results flagged for a closer look

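For 4 genes every stress library lay to one side of all control libraries in one tissue and to the opposite side in another. Liver and testis did so for 2 of 26 members tested in both (7.69%, against 2.42% of all 12952 genes tested in both), brain and testis for 2 of 12 (16.7%, against 1.44% of 15387 genes) and liver and brain for 0 of 13 (1.08% of 13079 genes). Hc and Crp were above in liver and below in testis. Hc differed by 0.957 on the log2 scale between the stress effects in liver and testis (edgeR adjusted p = 0.09), with 1.01, 0.856 and 1.19 CPM in stress testis, against 1.66, 1.63 and 1.63 CPM in control testis. Crp differed by 1.189 (edgeR adjusted p = 0.117), with 0.538, 0.461 and 0.358 CPM in stress testis, against 0.902, 0.94 and 0.576 CPM in control testis. Both are low in testis, and neither difference passed the threshold of 0.05. A2m was above in brain and below in testis, with stress effects that differed by 2.397, and it had 7.13, 5.73 and 6.62 CPM in stress testis, against 7.40, 9.14 and 9.59 CPM in control testis. C8g was below in brain and above in testis, with stress effects that differed by -0.449. The differences of A2m and C8g between brain and testis were not tested.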

How the results depend on the processing

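Over 784 values of named genes under alternatives, 753 stayed on the same side of the threshold, 14 lost a call, 17 gained one and 0 reversed a call. In liver, the count of members called higher was 0 and became 1 with library size alone (Hamp), 2 with no filter, 2 with DESeq2 and 2 with the replicate block (Hamp and C6 in each), and 1 with all 18 libraries in 1 fit (C6). Leaving out 1 library gave 0 to 2. The count called lower was 2 and became 3 with no filter and with DESeq2 (Cfd, Fgb and Fgg in each), 1 with the stricter filter (Fgb), 0 with limma on TPM, 1 with the replicate block (Cfd) and 0 to 1 when 1 library was left out. In brain, DESeq2 called 1 gene higher, against 0. For liver minus brain, leaving out 1 library gave 0 to 1 called lower (F5), and for liver minus testis DESeq2 called 3 higher, against 0. For control liver against control brain the 1 gene called lower became 0 with the stricter filter and 0 with limma on TPM, since A2m was then not tested. In liver the replicate numbers were not taken to pair the libraries. In brain, where they were, and in the other comparisons, the block changed no count of members called. Over all genes, brain had 17 higher and 5 lower calls with the block, against 1 and 0 without it, liver minus brain 0 and 2, against 19 and 18, and liver minus testis 6 and 10, against 16 and 17. Library size alone moved the median of all genes by -1.04 for control liver against control brain and -0.74 against control testis, and limma on TPM by -1.72 and -1.02. DESeq2's size factors moved it by -0.142 for control liver against control testis, and limma on TPM by 0.145 for liver minus testis. Under library size alone and under limma, 45 genes were called higher in control liver than in control brain and 44 than in control testis.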
